A study of Mus musculus with 6 samples.

Results

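Neurofilament and retinal ganglion cell (RGC) identity genes are described here, 10 genes taken by symbol from the 55573 genes of the count table. They are the neurofilament chains Nefl, Nefm and Nefh and the identity genes Rbpms, Slc17a6, Pou4f1, Pou4f2, Isl1, Thy1 and Sncg. The libraries were made from total RNA of cells sorted as RGCs from C57BL/6 mouse retinas, and all animals carried floxed Myh9 and Myh10 alleles. In the 3 libraries labelled WT the eyes had received AAV2-GFP in the vitreous, and in the 3 labelled dKO they had received AAV2-Cre, in both cases 2 weeks before collection. The control animals are thus floxed mice with a GFP virus, not mice without the alleles, and each library pooled 3 retinas of 3 mice. Any deletion is limited to cells that AAV2 entered, and the labels name no promoter that would keep Cre to RGCs. The labels give neither the age of the mice nor the gate of the sort.

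RGCs are the output neurons of the retina, and their axons form the optic nerve. Neurofilaments are the intermediate filaments of neurons. They assemble from a light, a medium and a heavy chain, fill large axons and set their calibre, and RGCs are among the retinal cells richest in them. Cells become and stay RGCs under transcription factors of the POU4 (Brn3) and LIM-homeodomain families, and mature RGCs release glutamate, which the transporter encoded by Slc17a6 (VGLUT2) loads into vesicles. Neither kind of gene is fully private to RGCs: Isl1 is also made by ON bipolar and starburst amacrine cells, Thy1 by T cells, and Rbpms by smooth muscle.

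A single ribosomal RNA row, CT010467.1, took 89.8% to 92.8% of 5 libraries and 64.2% of dKO replicate 3. The reads left for other genes numbered 346037 to 576060 in those 5 libraries and 1636581 in dKO replicate 3, the deepest. Dividing by the library total, row included, thus raises the levels of dKO replicate 3 above those of every other library. Levels are therefore given as counts per 1000000 counts outside that row, written CPM here. A value after ± is the SD over the 3 libraries of a group unless SE is named, and the 3 values of a group are in the order of its replicate numbers. The targeted gene Myh9 stood at 583, 624 and 540 CPM in WT against 576, 602 and 544 in dKO (291, 216, 238, 332, 273 and 891 counts), and Myh10 at 182, 182 and 145 against 174, 188 and 133 (91, 63, 64, 100, 85 and 217 counts). Neither was called (edgeR log2 fold change -0.044 ± 0.098 and -0.15 ± 0.14, SE; adjusted p = 0.908 and 0.735). Counts of a whole gene also take reads from exons outside the floxed part, so they do not check the deletion, and the groups are called by their labels throughout. Each library is a pool of different mice, but nothing in the labels says that no animal gave to more than 1 library. The p-values therefore speak of the spread among these libraries only, and that spread may be technical.

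Checked against its defining markers, the label of RGCs rested on few reads. Rbpms had 11, 5 and 6 counts in the WT libraries and 9, 8 and 30 in the dKO libraries, and Slc17a6 had 2, 1 and 2 against 7, 4 and 21. Both were thus detected in each of the 6 libraries, with a small part of the reads. The shares of counts given next grow with transcript length. Glul, the glutamine synthetase of Müller glia, stood at 10110 ± 193 CPM in WT and 10620 ± 496 in dKO, while Rbpms stood at 16.7 ± 4.64 and 17.2 ± 1.41. The 10 genes together held 110, 80 and 105 counts in WT and 159, 122 and 458 in dKO. As levels these were 220, 231 and 238 CPM in WT and 276, 269 and 280 in dKO. In bulk libraries such as these, fewer cells of a type and less RNA per cell cannot be told apart.

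Nefl rose in the libraries labelled dKO, Nefm was higher there too in sparse counts, and Nefh overlapped between the groups. Among the identity genes, Slc17a6 and Pou4f1 were higher in each dKO library than in any WT library, Isl1 was lower in each, and Rbpms, Pou4f2, Thy1 and Sncg overlapped. Only Nefl, Isl1 and Thy1 had enough counts for the test across genes. Isl1 and Thy1 passed the minimum in all 6 libraries, but Nefl passed it in the 3 dKO libraries and in 0 of the WT libraries, so it was tested only because of the group where it is high. Its call is therefore not read as 1 in 3 genes. Nefl was called higher and none was called lower, where 0.734% of all 8444 genes tested were called higher and 1.18% lower (edgeR, quasi-likelihood; adjusted p under 0.05 by Benjamini-Hochberg). Of the 10 genes, 4 had every dKO library above every WT library and 1 had every dKO library below. The first pattern was seen in 6.38% of the 21821 genes with any count and in 9.5% of the genes tested, and the second in 7.33% of the genes tested. The plot of each gene by library shows these groups of values.

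**Figure D1:**
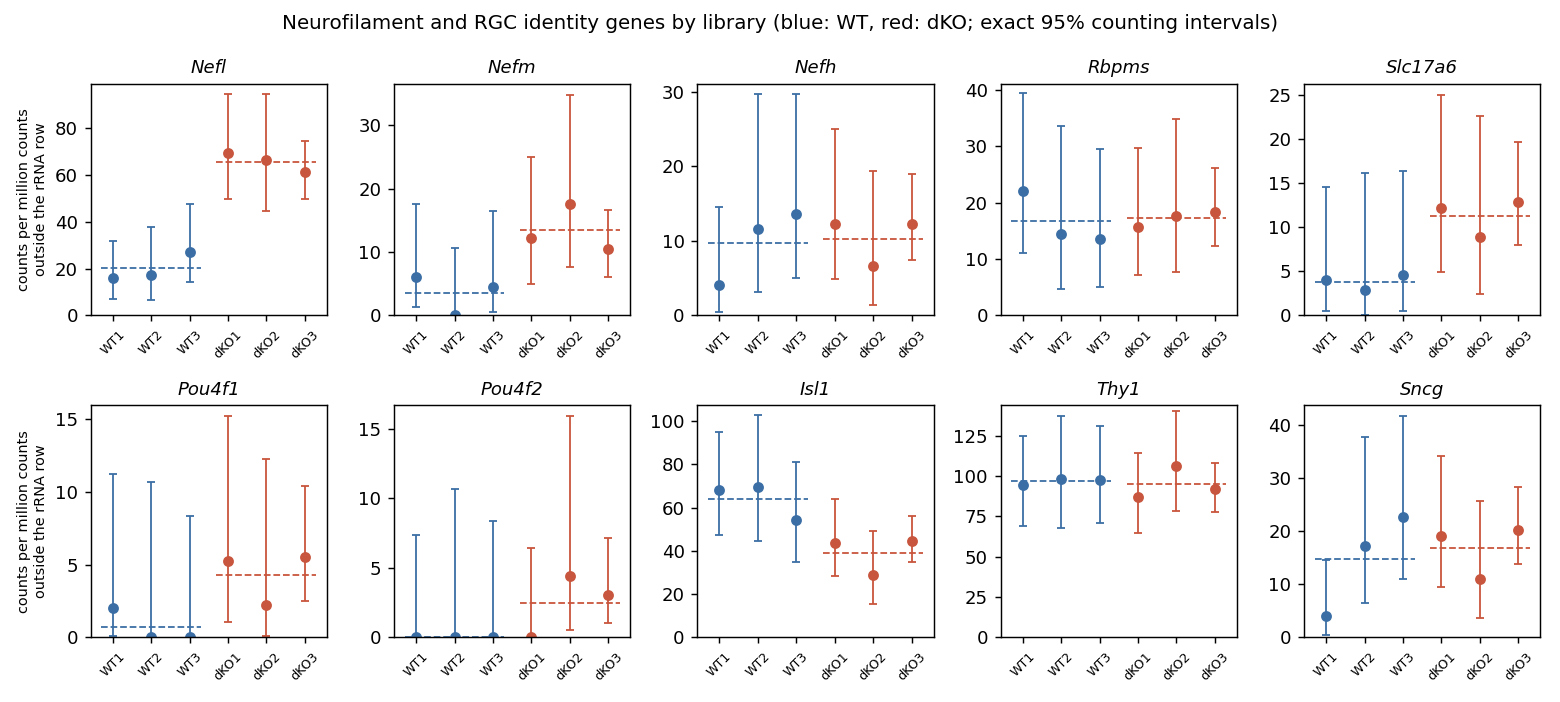
Level of each of the 10 genes in each library, in CPM outside the ribosomal RNA row (vertical axes, each from 0), with WT in blue and dKO in red. Bars are exact 95% binomial intervals for counting error and dashed lines are group means. Nefl lies at 16.0 to 27.2 in WT and 61.1 to 69.4 in dKO, Thy1 overlaps, and the intervals of Pou4f1 and Pou4f2 are wide.

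Nefl (ENSMUSG00000022055, chromosome 14, 68083863 to 68089095 in GRCm38, forward strand, protein-coding) encodes the light neurofilament chain, the one on which the other chains assemble. It had 8, 6 and 12 counts in WT and 40, 30 and 100 in dKO. In CPM these were 16.0, 17.3 and 27.2 against 69.4, 66.2 and 61.1. All 3 dKO libraries were thus well above the highest WT library, and the dKO libraries lay closer to each other than the WT libraries did. The group levels were 20.2 ± 6.11 and 65.6 ± 4.20 CPM (SD, n = 3). The edgeR log2 fold change was 1.63 ± 0.28 (SE; adjusted p = 3.96e-05), which is a ratio of 3.10 with a 95% interval of 2.11 to 4.55. The exact permutation p over the 6 libraries was 0.1, the smallest that 3 against 3 allow. Nefl was called in 15 of 16 alternative analyses. These reuse the same counts for a gene listed with earlier results known, so they show dependence on settings and are not separate support. The exception was library-total scaling, with a log2 fold change of 2.85 ± 0.93 (SE; adjusted p = 0.301). Without the low-count filter, which removes the selection by group, the adjusted p was 2.36e-06. With DESeq2 its adjusted p was 0.00625 and without dKO replicate 3, the deep library, it was 3.61e-05, and 0.00625 was the highest of the 15, 2.36e-06 the lowest.

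Nefm (ENSMUSG00000022054, chromosome 14, 68082590 to 68124846, reverse strand, protein-coding) encodes the medium chain. It had 3, 0 and 2 counts in WT and 7, 8 and 17 in dKO, or 6.01, 0 and 4.53 CPM against 12.2, 17.6 and 10.4. The groups did not overlap, though the lowest dKO library was less than 5 CPM above the highest WT library. Too few counts kept Nefm out of the test. Pooled over the libraries, 5 WT and 32 dKO counts gave a ratio of 3.09 (exact 95% interval 1.19 to 10.2, counting error only), and without the low-count filter edgeR gave a log2 fold change of 1.62 ± 0.66 (SE; adjusted p = 0.421). The ratio of group means, 3.81, became 5.91 without WT replicate 1 and 2.54 without WT replicate 2. The direction was therefore the one seen for Nefl, at a depth that does not fix its size.

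Nefh (ENSMUSG00000020396, chromosome 11, 4938754 to 4948064, reverse strand, protein-coding) encodes the heavy chain, whose long tail carries many phosphorylation sites. It had 2, 4 and 6 counts in WT and 7, 3 and 20 in dKO, or 4.01, 11.6 and 13.6 CPM against 12.2, 6.62 and 12.2. These values overlapped in full, and the exact permutation p was 0.8. The pooled ratio was 1.21 with an interval of 0.600 to 2.59. That interval reaches into the interval of Nefl, and the difference between Nefl and Nefh was not tested.

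The genes for the light and the medium chain lie on opposite strands of one locus, and the annotation makes them overlap. In GENCODE M21 exon 4 of the transcript Nefm-202 runs antisense across 1108 bases of Nefl exon 1 (68083863 to 68084970), which is 32.8% of the exonic length of Nefl. Reads from this stretch belong to one gene or the other only if the counting used strand, and the setting is not given in the sources used here. The end of the overlap is shown because both genes' counts depend on how it was treated. It lies in coding sequence of Nefl (chr14:68084851-68085000, forward strand, GRCm38), with the 120 bases that also lie in the Nefm-202 exon in capitals:
Nefl exon 1: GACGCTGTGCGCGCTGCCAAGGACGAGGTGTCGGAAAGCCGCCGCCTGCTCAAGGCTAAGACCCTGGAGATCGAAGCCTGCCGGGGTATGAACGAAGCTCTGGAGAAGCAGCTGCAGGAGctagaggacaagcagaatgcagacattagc

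The chains share only short stretches of identical sequence. The longest run of bases identical between coding sequences was 17 for Nefl and Nefm, 14 for Nefl and Nefh and 23 for Nefm and Nefh, and between Nefl and the filament genes Ina, Vim and Gfap it was 13 or 14. The longest runs between neurofilament genes are printed to show how short they are, in capitals throughout because all of their bases are shared (same strand as the genes; GENCODE M21 transcripts, GRCm38):
Nefl and Nefm: GCCGAAGAGTGGTTCAA
Nefl and Nefh: GCAGGCGCTGCAGG
Nefm and Nefh: AACGTCAAGATGGCCCTGGACAT

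Nefh has repeats of its own. An 18-base unit occurs 9 times in its coding sequence of 3270 bases, while no 18-base word occurs more than once in Nefl (1629 bases) or Nefm (2544 bases). Reads from this tail can match several places of the same gene, and how such reads were counted is not given in the sources used here. A stretch of exon 4 (chr11:4940486-4940665, reverse strand, GRCm38) shows 5 copies of the unit in capitals, with near copies in lower case between them:
Nefh exon 4: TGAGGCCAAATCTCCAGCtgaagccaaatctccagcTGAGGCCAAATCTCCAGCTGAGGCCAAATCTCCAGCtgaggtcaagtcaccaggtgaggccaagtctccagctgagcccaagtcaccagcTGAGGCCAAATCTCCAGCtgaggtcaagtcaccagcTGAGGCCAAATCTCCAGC

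Compared per length, the light chain led in both groups. In CPM per kilobase of annotated exon, the level was 5.97 for Nefl in WT and 19.4 in dKO, against 2.43 and 2.59 for Nefh and 0.608 and 2.32 for Nefm. Over the 3334 bases of the shorter transcript Nefm-201, which does not reach Nefl, the Nefm level per kilobase was 1.05 and 4.02. In WT the group means ran in the order Nefl, Nefh, Nefm with either length, and in dKO the order of Nefh and Nefm changed with the length used. The WT order of Nefh and Nefm rests on 12 and 5 counts. In WT replicate 1 Nefm had 3 counts and Nefh 2, so that order is not settled. Nefl supplied 60.0% to 61.5% of the neurofilament counts in the WT libraries and 73.0% to 74.1% in the dKO libraries.

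Summed over the 3 chains, neurofilament counts were 13, 10 and 20 in WT and 54, 41 and 137 in dKO, or 26.0, 28.9 and 45.3 CPM against 93.7, 90.4 and 83.7. The dKO mean was 2.67 times the WT mean (89.3 ± 5.11 and 33.4 ± 10.4 CPM), and 5.99 times when the ribosomal RNA row stayed in the denominator. The sum follows Nefl, which holds most of its counts, and no p is given for it because its genes were picked with results known.

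**Figure D2:**
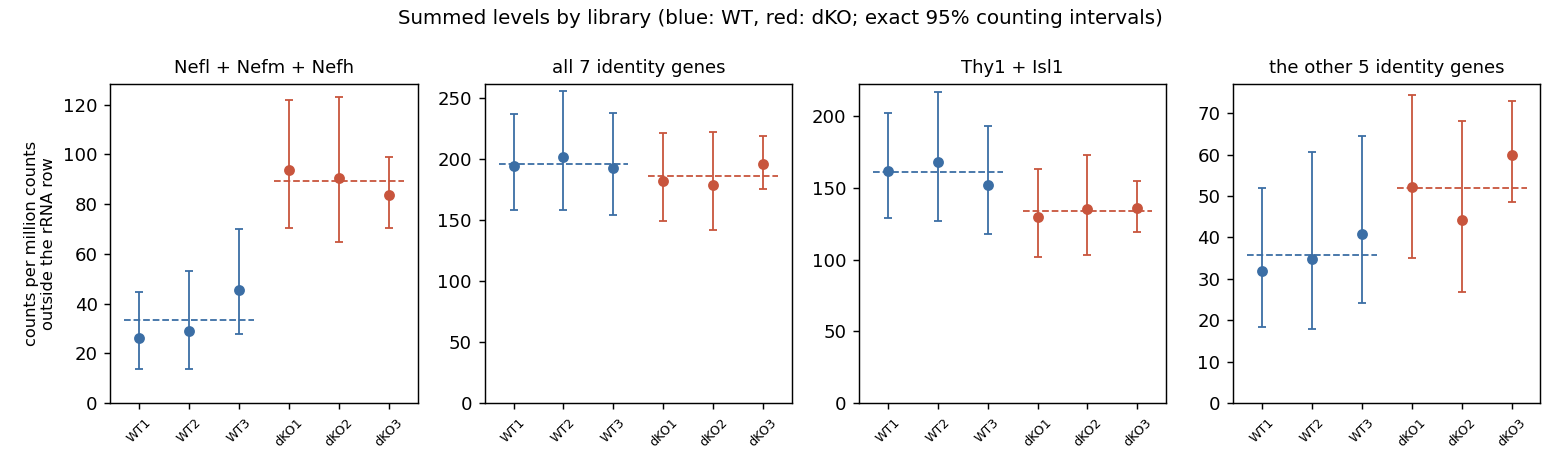
Summed level per library, in CPM outside the ribosomal RNA row (vertical axes from 0), for the neurofilament genes, all 7 identity genes, Thy1 with Isl1, and the other 5 identity genes, with WT in blue, dKO in red, exact 95% intervals for counting error and group means as dashed lines. The neurofilament sum lies at 26.0 to 45.3 in WT and 83.7 to 93.7 in dKO, and the identity sum overlaps.

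The identity genes did not move as a block. Their summed level was 194, 202 and 193 CPM in WT and 182, 179 and 196 in dKO, and the groups overlapped. The ratio of means was 0.945, and 2.19 when the ribosomal RNA row stayed in the denominator. Thy1 and Isl1 supplied 78.8% to 83.5% of these counts in WT and 69.5% to 75.3% in dKO. Without them the other 5 genes summed to 32.0, 34.7 and 40.8 CPM in WT and 52.1, 44.1 and 59.9 in dKO, a ratio of 1.45. Leaving out these 2 genes together, which other retinal or immune cells also make, thus changed the direction of the identity sum. The pair had a ratio of 0.832 (162, 168 and 152 against 130, 135 and 136 CPM). Within it Isl1 had a ratio of means of 0.608, while Thy1 was nearly level at 0.981. Neither was left out of the sum alone.

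Pou4f1 and Pou4f2 encode the POU-domain transcription factors Brn3a and Brn3b. Pou4f1 (ENSMUSG00000048349, chromosome 14, 104461676 to 104467999, reverse strand) had 1, 0 and 0 counts in WT and 3, 1 and 9 in dKO, or 2.00, 0 and 0 CPM against 5.21, 2.21 and 5.50. The groups did not overlap, but dKO replicate 2 was only just above WT replicate 1, each with a single count. The pooled ratio of 6.27 had an interval of 0.942 to 267, which includes 1. Without WT replicate 1, which held the single WT count, Pou4f1 was at 0 in that group. Pou4f2 (ENSMUSG00000031688, chromosome 8, 78433010 to 78436645, reverse strand) had no count in any WT library and 0, 2 and 5 counts in dKO. A count of 0 in the pooled WT libraries allows up to 3 counts, or 2.33 CPM, and the pooled dKO level of 2.63 lay just above that limit. Since dKO replicate 1 also had no count, the groups overlapped (exact permutation p = 0.4), and no fold is given.

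Isl1 (ENSMUSG00000042258, chromosome 13, 116298281 to 116309689, reverse strand) encodes a LIM-homeodomain factor that acts beside Brn3b in RGC development and is kept in ON bipolar cells. It had 34, 24 and 24 counts in WT and 25, 13 and 73 in dKO, or 68.1, 69.4 and 54.4 CPM against 43.4, 28.7 and 44.6. Each dKO library was below each WT library. The edgeR log2 fold change was -0.65 ± 0.23 (SE), with a 95% interval of -1.10 to -0.20, but after adjustment over all genes it did not pass (adjusted p = 0.138, and 0.129 to 0.775 over the alternatives other than library-total scaling). With library-total scaling, which moved the median log2 fold change of all genes tested to 1.21, the value for Isl1 was 0.56. Of 11 bipolar cell markers tested, 5 were called lower in the same libraries and none higher, with a median log2 fold change of -0.32, and all 12 on the list had counts. Without the low-count filter 3 of the 12 were called lower. Their summed level was 0.219% to 0.234% of the same counts in WT and 0.166% to 0.175% in dKO. The most abundant was Trpm1, the cation channel of ON bipolar dendrites, at 526 ± 45.2 CPM in WT and 358 ± 18.9 in dKO (adjusted p = 5.23e-05). Chat, the enzyme that marks starburst amacrine cells, had 3 counts in all, and Slc18a3 had none. At this depth such counts do not tell whether starburst cells were present. The part of bipolar or starburst cells in the Isl1 level was not tested.

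Rbpms (ENSMUSG00000031586, chromosome 8, 33782643 to 33929863, reverse strand) encodes an RNA-binding protein used as a marker of nearly all RGCs. Its levels were 22.0, 14.4 and 13.6 CPM in WT and 15.6, 17.6 and 18.3 in dKO. The dKO values lay inside the WT range, and the pooled ratio of 1.03 had an interval of 0.609 to 1.80. Mural cells, which also make Rbpms, were counted with endothelial cells in a list of 10 markers, and none of 7 tested was called. The summed level was 0.310% to 0.369% in WT and 0.331% to 0.342% in dKO. It was led by Kdr (1475 ± 175 and 1400 ± 15.3 CPM), an endothelial marker, and then Rgs5 (813 ± 15.7 and 872 ± 74.2). The untested Cldn5, Cdh5 and Tek had lower means in dKO (19.1 ± 4.35 against 5.31 ± 4.09, 11.3 ± 6.43 against 2.08 ± 2.22, and 11.1 ± 8.81 against 2.94 ± 1.70 CPM). The part of mural cells in the Rbpms level was not tested.

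Slc17a6 (ENSMUSG00000030500, chromosome 7, 51622006 to 51671119, forward strand) was at 4.01, 2.89 and 4.53 CPM in WT and 12.2, 8.82 and 12.8 in dKO. The lowest dKO level was thus above the highest WT level, as for Nefl and Nefm. Pooled, 5 WT and 32 dKO counts gave a ratio of 3.09 (interval 1.19 to 10.2), and without the low-count filter edgeR gave 1.57 ± 0.66 (SE; adjusted p = 0.455). Rbpms and Slc17a6, both markers of RGCs as a class, therefore gave different ratios, with intervals that overlap, and their difference was not tested.

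Promoter windows from RefSeq (GRCm38.p6) were found for 5 of the 10 genes, and Nefl, Nefm, Nefh, Rbpms and Thy1 were not matched. The 6 windows of 250 bases before to 50 after a start site were searched on both strands for ATAATTAAT, letters that POU4 factors bind, and for CAGCTG, one form of the E-box of bHLH factors. The first was present at 1 of the start sites of Slc17a6, and in 0.273% of all 32544 promoters. The second was present in the windows of Isl1 and Pou4f1, and in 16.4% of all promoters. The Slc17a6 window is shown, up to the start site, because it is the only one with the POU4 letters, which are in capitals as the reverse complement and begin 83 bases before the start (chr7:51624387-51624636, forward strand):
Slc17a6: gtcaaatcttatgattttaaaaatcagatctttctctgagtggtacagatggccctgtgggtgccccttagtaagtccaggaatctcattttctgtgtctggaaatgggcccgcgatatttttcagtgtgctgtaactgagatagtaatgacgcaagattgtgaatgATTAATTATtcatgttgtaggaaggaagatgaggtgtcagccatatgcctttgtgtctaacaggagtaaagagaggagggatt
A match of letters is a description of the window and shows no binding.

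Thy1 (ENSMUSG00000032011, chromosome 9, 44043384 to 44048579, forward strand) encodes a surface glycoprotein long used to enrich RGCs. It was at 94.1, 98.3 and 97.5 CPM in WT and 86.8, 106 and 91.7 in dKO, with the dKO libraries on both sides of the WT libraries. The edgeR log2 fold change was -0.073 ± 0.168 (SE; adjusted p = 0.911), and the 95% interval of the ratio, 0.754 to 1.20, leaves out a change of the size seen for Nefl. With library-total scaling the log2 fold change of Thy1 was 1.13, close to the shift of all genes. T cells, which carry Thy1 in mice, were present by all 11 of their listed markers. The summed level of these was 0.0407% to 0.0459% in WT and 0.0425% to 0.0576% in dKO, led by Lck (62.6 ± 10.7 and 85.8 ± 11.7 CPM) and Cd4 (57.3 ± 18.2 and 69.1 ± 11.5), and none of 9 tested was called. The part of T cells in the Thy1 level was not tested.

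Sncg (ENSMUSG00000023064, chromosome 14, 34370274 to 34374789, reverse strand) encodes gamma-synuclein, a small protein abundant in RGC bodies and axons. It was at 4.01, 17.3 and 22.7 CPM in WT and 19.1, 11 and 20.2 in dKO. WT replicate 1, with 2 counts, was the lowest of the 6 libraries, and the other 5 libraries mixed. The pooled ratio was 1.31 (interval 0.752 to 2.40), and the exact permutation p was 0.8. Per kilobase of exon, Sncg, whose exons span only 852 bases, stood at 17.2 CPM in WT and 19.7 in dKO, which places it near Isl1 (16.2) in WT and near Nefl (19.4) in dKO.

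Ordered by level per kilobase in WT, the identity genes ran from Thy1 (32.3 CPM) through Sncg (17.2), Isl1 (16.2), Rbpms (2.55), Slc17a6 (0.706) and Pou4f1 (0.143) to Pou4f2 (0). Here Sncg and Isl1 differed by less than the sum of their SDs, and so did Pou4f1 and Pou4f2, which had at most 1 count per library. In dKO the order from the top was Thy1 (31.6), Sncg (19.7), Isl1 (9.82), Rbpms (2.62), Slc17a6 (2.09), Pou4f1 (0.921) and Pou4f2 (0.777). The order was thus the same in both groups, but in dKO Rbpms and Slc17a6 also differed by less than the sum of their SDs, as Pou4f1 and Pou4f2 did.

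**Figure D3:**
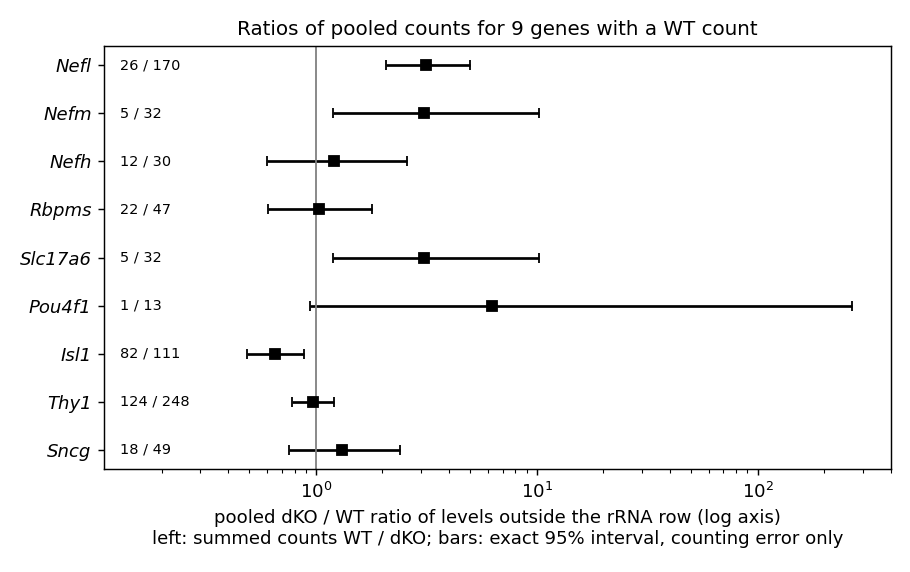
Ratio of pooled dKO to pooled WT levels for the 9 genes with a WT count (log axis), with exact 95% intervals that cover counting error only and the summed WT and dKO counts at the left. The intervals of Nefl, Nefm and Slc17a6 lie above 1, that of Isl1 lies below 1 (0.487 to 0.880), and the other 5 include 1. With the ribosomal RNA row in the denominator the ratio of means of Isl1 is 1.46, a value that dKO replicate 3, where that row is smallest (64.2%), raises most.

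Over the 10 genes, the two-sided exact permutation p was 0.1 for Nefl, Nefm, Slc17a6, Pou4f1 and Isl1, 0.4 for Pou4f2 and 0.8 or 0.9 for Nefh, Rbpms, Thy1 and Sncg. Since 0.1 is the smallest value that 3 against 3 libraries can give, and becomes 0.2 after Benjamini-Hochberg adjustment over the 10 tests, no gene could pass by this test. The counting intervals do not hold the spread between animals.

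Other genes made by RGCs were likewise sparse. Of a list of 21 such genes, 20 had a count and 5 were tested, none of which was called. Of these 5, 4 fell short of the count minimum in at least 1 WT library and in none of the dKO libraries, so their positive values (median log2 fold change 0.86 over the 5, against -0.00072 over all genes tested) were favoured by the filter. Without the filter 17 of the 20 had a positive value and 0 were called, where 54.3% of all 21821 genes had a positive value. Gap43, a growth cone protein, was at 23.4 ± 8.15 CPM in WT and 39.9 ± 9.0 in dKO (log2 fold change 0.90, adjusted p = 0.120). Chrna6, a nicotinic receptor subunit of RGCs, was at 15.1 ± 9.48 and 28.9 ± 3.11 (0.99, adjusted p = 0.206). Atoh7, the factor that starts RGC development and is off in mature cells, had no count. The summed level of the list was 0.0156% to 0.0218% in WT and 0.0276% to 0.0322% in dKO.

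Among 29 genes of the axonal cytoskeleton and its transport motors, 25 were tested, 20 had a positive value and the median was 0.13. Of all genes tested, 49.8% had a positive value. The minimum was missed in a WT library by 4 of the 25, and without the filter 26 of 29 were positive and 2 were called. Of all 21821 genes without the filter, 54.3% were positive and 180 were called. With the filter only Map1b, which binds axonal microtubules, was called, at 211 ± 18.5 CPM in WT and 299.9 ± 50.8 in dKO (0.51 ± 0.12, SE; adjusted p = 0.00762). Among the other intermediate filament genes 6 of 9 were tested, with a median of 0.092, and only Gfap, the filament of astrocytes and reactive Müller glia, was called (210 ± 23.8 and 347 ± 33.7 CPM; 0.69 ± 0.12, SE; adjusted p = 4.04e-05). The neuronal filament gene Ina, whose product joins neurofilaments in central axons, had too few counts to test (19.0 ± 3.72 and 17.6 ± 3.82 CPM). Beside Nefl, the called filament gene was thus a glial one.

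**Figure D4:**
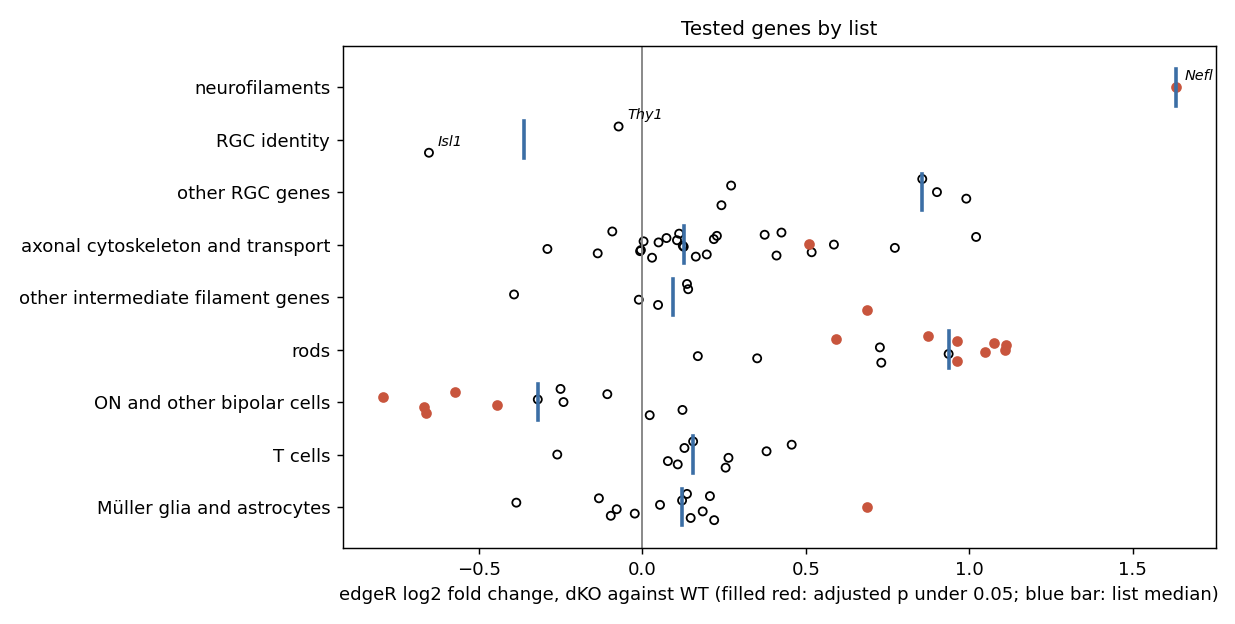
edgeR log2 fold change of each tested gene, dKO against WT (horizontal axis), by list, with called genes filled in red and the list median as a blue bar. Nefl lies at 1.63, Isl1 and Thy1 lie below 0 under TMM scaling (above 0 with library-total scaling), 4 of the 5 other RGC genes passed the count minimum in every dKO but not every WT library, most rod genes lie above 0.5 and called bipolar genes lie below -0.4.

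Markers of other cells moved in the same libraries as Nefl. Of 14 rod photoreceptor genes 13 were tested and 8 were called higher, with a median log2 fold change of 0.94. Their summed level was 0.207% to 0.234% in WT and 0.368% to 0.456% in dKO, and all 14 had counts. Of 10 amacrine markers 9 had counts and 2 were tested, and 1 of them, the glycine transporter gene Slc6a9, which like Nefl passed the minimum only in dKO libraries, was called higher (10.8 ± 2.55 and 49.3 ± 15.2 CPM; adjusted p = 0.000316). The amacrine list had a summed level of 0.0403% to 0.0416% in WT and 0.0461% to 0.0490% in dKO. Horizontal cells also make neurofilaments, but of 5 of their markers in the table Onecut1 had no count and Lhx1 had 1, and the summed level, nearly all from Prox1, was 0.0214% to 0.0260% in WT and 0.0188% to 0.0203% in dKO. Müller glia and astrocyte markers summed to 3.07% to 3.17% and 3.18% to 3.44%, with Gfap the only one of 13 called, and microglia markers to 0.688% to 0.750% and 0.718% to 0.765%, with none of 12 called. The part of these cells in the Nefl level was not tested.

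Across the 6 libraries, the 5 genes whose TMM-scaled log2 values followed Nefl most closely, among 8443 others tested, were Fcgr3 (Pearson r = 0.996), an Fc receptor of myeloid cells, Gucd1 (0.994), Rcvrn (0.994), recoverin of photoreceptors, Ctsd (0.993), a lysosomal protease, and Eef1a1 (0.988), a translation elongation factor. Of these, Fcgr3 and Ctsd were called higher (adjusted p = 0.0348 and 0.00649). With 6 libraries in 2 groups and so many genes, such values describe the libraries only. No other listed RGC gene was among the 5, but only tested genes were ranked. Of those listed, just Isl1, Thy1 and 5 of the 21 other RGC genes were tested, so the absence of the rest was fixed by the filter.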

How the data were processed

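RNA of FACS-sorted cells was sequenced after a stranded total RNA preparation, per the labels' protocols. The deposited table gives whole-number read counts for each gene, which the authors had not normalized. The submitters' processing notes name STAR 2.7.0d, DESeq2 1.22.2 and GRCm38; for the counter, its strand setting and its handling of multiply matching reads, the entry is: not given in the sources used here.

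In edgeR 4.0.16 under R 4.3.3, filterByExpr (min.count 10, min.total.count 15) left 8444 genes, TMM set the scaling, and a two-sided quasi-likelihood F test compared the groups with no other term. SE was taken as the ratio of the log2 fold change to the root of F. The levels given as CPM in the text leave out row CT010467.1 from the total. Exact binomial intervals (95%) and the floor of 3 counts cover counting error only. Pooled ratios sum counts within a group, so dKO replicate 3 weighs most. Positions and exon lengths are from GENCODE M21 (GRCm38), where all 10 IDs were found. Each library was counted as 1 replicate, as the labels number them. No 2 libraries of a group agreed within sampling noise (chi-square per degree of freedom 1.17 to 4.19), but that spread may be technical and does not show that they are independent.

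The members and lists were chosen with earlier results of these data known. Named besides the members are, from each of 3 pathway lists, the called genes or else the 2 with the smallest p, from each cell type list the 2 most abundant, and the 5 genes most like Nefl. Some of the markers that this rule names are not reported here, and Atoh7, Ina, Chat, Slc18a3, Onecut1 and Lhx1 were named outside it, after their values were seen. Alternatives were other scalings, filters, DESeq2 1.42.0, limma-voom (limma 3.58.1), the replicate number as a block, single libraries left out and dKO replicate 3 thinned. On simulated counts for this comparison (8444 genes, 200 changed), the test called 29.3% of changes of 1.5-fold, 69.7% at 2-fold and 94.7% at 4-fold, with 3 false calls. The changed genes were drawn at random from all genes tested, with the same dispersion for all. These rates therefore average over abundances and do not give the rate for genes as sparse as most members.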

Additional observations from a re-analysis of the deposited data

How the results depend on the processing

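Library-total scaling changed most results: 3 genes were called higher and 0 lower, no member was called (0 higher), Nefl stood at a log2 fold change of 2.85 (adjusted p = 0.301), and Isl1 (0.56) and Thy1 (1.13) changed sign. That scaling moved the median log2 fold change of all tested genes to 1.21, and relative to it Isl1 and Thy1 stayed lower. The ribosomal RNA row took 64.2% of dKO replicate 3 and 89.8% to 92.8% of each other library. Results over library totals, changes of sign among them, therefore weigh that 1 library most. With the library total as the denominator, the dKO to WT ratio was 5.99 for the neurofilament sum and 2.19 for the identity sum, which changed direction, and the ratio of each of the 9 members with a WT count moved by more than its spread. Without Thy1 and Isl1 the identity ratio was 1.45. DESeq2 called 26 genes higher and 26 lower. Leaving out single libraries gave 29 (without WT replicate 1) to 71 genes higher and 61 (without WT replicate 1) to 115 lower, 66 of them lower without dKO replicate 3, a neurofilament ratio of 2.41 to 3.25, and 8 of 53 member ratios moved by more than their spread. Nefl was called in each of these omissions, and its log2 fold change was 1.44 to 1.93 over the 15 settings other than library-total scaling. Same-numbered libraries deviated together only weakly (r = 0.0262, 0.0129 and 0.0287), although each library correlated best with its own number, and with the replicate block 58 genes were called higher, 100 lower, and Nefl stood at 1.64. With 12 or fewer WT counts per library, depth limits the size of every change named for Nefl, Nefm, Nefh, Rbpms, Slc17a6, Pou4f1, Pou4f2 and Sncg.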
